A study of Mus musculus with 44 samples.

Results

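The genes described are the cytochrome P450 genes of families 1 to 4, meaning the 85 rows among the 19733 gene symbols of the organoid count table whose symbol starts with Cyp, a family number from 1 to 4 and a subfamily letter. The rule reads the symbols and uses no measured value, though the families were picked with earlier results of these data known. RNA-seq counts of 20 mouse organoid libraries on a C57BL/6 background were available, in 2 experiments that were fitted apart. In the first, called the lines, there were small intestine organoids (2 libraries) and gastric organoids that carried CDX2 (3), HNF4A (3) or GFP (3) by lentiviral transduction; the 3 transduced gastric sets share the vector step, and small intestine organoids are a different tissue with no transgene named. In the second, the antrum organoids all overexpressed HNF4A and were homozygous (3), heterozygous (3) or wild type (3) for the CRISPR deletion, carried in the germline, of a Cdx2 enhancer that lies 3' of the gene, so the wild type there is not an untreated stomach. The sources used here do not give the promoter that drives the transgenes, their species, the age of the mice or whether numbered libraries came from separate animals, and p-values measure the spread between these libraries, which may be technical.

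Cytochrome P450 enzymes are haem proteins of the endoplasmic reticulum that insert an oxygen atom into their substrates with electrons delivered by P450 oxidoreductase (Por). Families 1 to 3 are best known for clearing drugs, toxins and steroids in liver and intestine, and family 4 for hydroxylating the end of fatty acid and eicosanoid chains. Many of these genes answer to ligand-activated receptors, AHR for Cyp1 genes, CAR (Nr1i3) and PXR (Nr1i2) for Cyp2b, Cyp2c and Cyp3a genes, and HNF4A is an established activator of liver P450 genes.

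Of the 85 genes, 80 are protein coding and 5 are transcribed pseudogenes in RefSeq (GRCm38.p6), where 84 matched by symbol and Cyp2c44 by synonym, as Cyp2c23. They lie mostly in clusters of tandem paralogs, with 16 on chromosome 19 (Cyp2c), 10 on chromosome 15 (Cyp2d), 10 on chromosome 5 (mostly Cyp3a), 10 on chromosome 17 (mostly Cyp4f), 18 on chromosome 4 and 15 on chromosome 7. Reads of such paralogs can be shared, so values of Cyp2c, Cyp2d, Cyp3a, Cyp4a and Cyp4f members are uncertain as to which copy they come from. The filter on low counts left 37 members in the lines and 42 in the enhancer experiment, 45 in either. The 40 members tested in neither included 10 with 0 counts in all 20 libraries, and no untested member had more than 15 counts in a library of the lines or 16 in one of the enhancer experiment. Among the subfamilies, Cyp2ab, Cyp2g and Cyp4x had no tested member, and Cyp1a and Cyp4a had tested members in the enhancer experiment alone. Cyp1a1, the classical AHR target, was untested in both, with 15 and 6 counts in small intestine libraries and at most 2 in any other. A member that reached the filter through 1 high group had to differ between groups, so counts and medians over the tested members describe them and do not support a difference.

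Total counts per library ran from 6180498 to 11465309, which puts 3 counts at 0.256 to 0.473 CPM. CPM are counts scaled to library size with TMM factors. The tissue labels were compared with marker genes. The gastric marker list summed to 0.931 and 10.3 CPM in small intestine libraries, against 2210 to 7222 CPM in GFP libraries, and the small intestine list to 1766 and 2316 CPM, against 344 to 471 CPM. Fibroblast markers summed to 36.2 to 1068 CPM in homozygous, 100.1 to 1264 CPM in heterozygous and 3.18 to 6.74 CPM in wild-type libraries, so results of the enhancer experiment were also computed without the 3 richest libraries. Fewer cells of a type and less RNA per cell cannot be told apart in these bulk libraries.

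**Figure D1:**
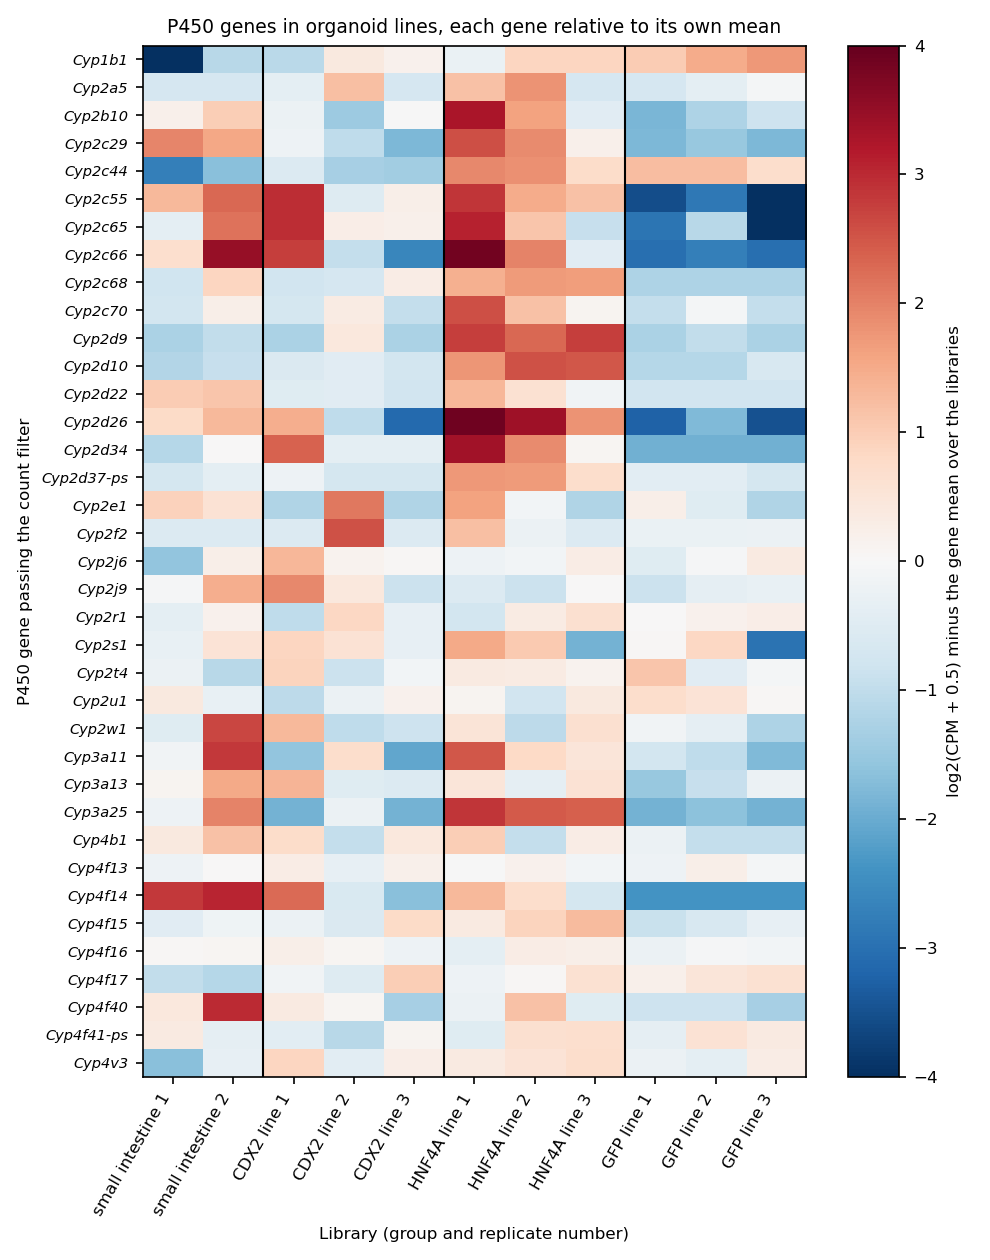
Each row is 1 of the 37 tested P450 genes and each column 1 of the 11 libraries of the lines; colour gives log2(CPM + 0.5) minus that gene's mean over the libraries, and differences beyond 4 are drawn at the end of the scale. Cyp2d9, Cyp2d10 and Cyp3a25 stand out in the 3 HNF4A columns, while Cyp2c55, Cyp2c65 and Cyp4f14 are above the GFP columns in small intestine, CDX2 and HNF4A columns alike.

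Small intestine organoids give the intestinal P450 pattern against which the gastric lines can be read. Against GFP gastric organoids, 9 of the 37 tested members rose and 3 fell by edgeR (adjusted p under 0.05), 32.4% of the members where 27.1% of all tested genes were called (14.2% higher, 12.9% lower), so the share is near the background. The members that rose were Cyp2c29, Cyp2c55, Cyp2c66, Cyp2c68, Cyp2d22, Cyp2d26, Cyp3a25, Cyp4f14 and Cyp4f40; those that fell were Cyp1b1, Cyp2c44 and Cyp4f17. The median log2 fold change of the 37 was 1.25, against -0.01 over all genes.

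Cyp4f14, an omega-hydroxylase of leukotriene B4 and vitamin E in mouse (chromosome 17, 32903357 to 32917376), was at 17.8 and 21.1 CPM in small intestine libraries, against 0 counts in all 3 GFP libraries. That is at least 173-fold higher, taking 3 counts over the GFP group as the floor (edgeR adjusted p = 0.0102). Cyp2c55, a mouse arachidonic acid hydroxylase of the gut (chromosome 19, 39006940 to 39042690), was at 63.0 and 126 CPM in small intestine, against 1.71, 3.08 and 0.123 CPM in GFP libraries. Every small intestine library lay above every GFP library, with a log2 fold change of 5.81 ± 1.19 (SE) and an edgeR adjusted p of 0.00816. Cyp2c29, an arachidonic acid epoxygenase of the same Cyp2c cluster, was at 6.24 and 4.61 CPM in small intestine, against 0, 0.106 and 0 CPM in GFP libraries. The GFP group held 1 count. The ratio of the group levels was 148, with a 95% counting interval of 26.0 to 5897 (edgeR adjusted p = 0.00755).

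Of the other risers, Cyp2c66, Cyp4f40, Cyp2c68 and Cyp3a25 were less even between the pair of intestinal libraries, while Cyp2d26 and Cyp2d22 were not. Cyp2c66 was at 5.87 and 45.0 CPM and Cyp4f40 at 1.21 and 9.55 CPM in small intestine, against at most 0.106 and 0.213 CPM in a GFP library. Cyp3a25 was at 1.12 and 6.91 CPM, against at most 0.106 CPM in a GFP library. Cyp2c68 was at 0.186 and 1.65 CPM, or 2 and 15 counts, against 0 counts in GFP libraries, so its call rests mostly on replicate 2. Small intestine replicate 2 was the higher of the pair in 29 of 37 tested members (78.4%), against 46.7% of all tested genes. Cyp2d26 averaged 11.2 ± 3.08 CPM in small intestine and 0.425 ± 0.647 CPM in GFP organoids (SD, n = 2 and 3; log2 fold change 4.63 ± 1.41, edgeR adjusted p = 0.0366). Cyp2d22, which is compared to human CYP2D6, was at 1.21 and 1.32 CPM against 0 counts in GFP libraries, at least 11.3-fold higher.

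Among the genes that fell, Cyp1b1, an AHR target that hydroxylates oestradiol (chromosome 17, 79706940 to 79715061), was at 13.7 and 109 CPM in small intestine, against 486, 665 and 798 CPM in GFP libraries. The groups did not overlap (log2 fold change -3.41 ± 0.83, edgeR adjusted p = 0.0159). Cyp2c44, a mouse epoxygenase of arachidonic acid (chromosome 19, 44005022 to 44029256), was at 0 and 0.549 CPM in small intestine, against 7.47, 7.34 and 5.02 CPM in GFP libraries (-4.58 ± 0.98, edgeR adjusted p = 0.00952). Cyp4f17 was at 4.84 and 4.28 CPM in small intestine, against 11.5, 14.2 and 15.6 CPM in GFP libraries (-1.59 ± 0.48, edgeR adjusted p = 0.0338). Without small intestine replicate 2 the number of members called was 6 in place of 12, and 7 without replicate 1, GFP replicate 1 or GFP replicate 3; Cyp2c29, Cyp4f14 and Cyp2c44 were called under every alternative run.

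In HNF4A gastric organoids 1 of the 37 tested members, Cyp2d10, rose by edgeR, where 0.142% of all tested genes were called. At an unadjusted p under 0.05 there were 17, all higher, where 5.76% of all genes had such a p; DESeq2 called 11 (1.74% of all genes) and limma-voom 0 (0.0393%). Groups did not overlap in the higher direction for 19 of 37 members, against 6.69% of all genes, and in the lower direction for 1, Cyp1b1, against 4.93%. The median log2 fold change was 2.84, against 0 over all genes. Of the 37 members, 4 had 0 counts and 9 had 1 to 3 counts over the GFP libraries. Those could pass the count filter only through other groups. The share without overlap and the median therefore describe the members and do not support a rise. With line number as a block, which the gastric libraries warrant since same-numbered ones deviate together, 5 rose (Cyp2c29, Cyp2c55, Cyp2d10, Cyp2d26 and Cyp3a25; 0.786% of all genes called). In the blocked fit of the 9 gastric libraries alone, an alternative added after seeing the data, 10 were higher and Cyp1b1 lower (2.24%).

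Cyp2d10 (chromosome 15, 82402845 to 82407253) was at 4.07, 7.47 and 7.08 CPM in HNF4A libraries, against 0.107, 0.106 and 0.368 CPM in GFP libraries. The 3 HNF4A libraries were close together and far above all GFP ones (log2 fold change 4.93 ± 0.67, edgeR adjusted p = 0.0284, 0.0152 with the block). The call was lost when GFP replicate 1, 2 or 3, HNF4A replicate 1 or 2, or either small intestine library was left out, under limma-voom (adjusted p = 0.0814), and in the fit of only the HNF4A and GFP libraries. Over all alternatives the adjusted p ran from 1.98e-06 to 0.205 and the log2 fold change from 4.65 to 5.69. Cyp2d9, known in mouse as a male-specific steroid 16-alpha-hydroxylase of liver (82452377 to 82456827 in the same cluster), was at 7.67, 5.32 and 7.62 CPM in HNF4A libraries, against 0, 0.106 and 0 CPM in GFP libraries. Its ratio was 184, with a 95% counting interval of 32.5 to 7298, and it was not called (edgeR adjusted p = 0.138, 0.0519 with the block). The pseudogene Cyp2d37-ps was at 2.21, 2.15 and 0.817 CPM in HNF4A, against 0.107, 0.106 and 0 CPM in GFP libraries, so 3 Cyp2d copies shared this pattern, for which shared reads were not tested.

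Cyp3a25, of the drug- and steroid-oxidising Cyp3a subfamily (chromosome 5, 145977192 to 146009644), was at 13.0, 9.85 and 9.25 CPM in HNF4A libraries, against 0, 0.106 and 0 CPM in GFP libraries. The 68 to 112 counts per HNF4A library faced 1 count over the GFP group, a ratio of 290 with a 95% counting interval of 51.6 to 11505 (edgeR adjusted p = 0.104, 0.0316 with the block). Cyp3a11, the main PXR-induced Cyp3a enzyme of mouse, was less even, at 11.3, 3.17 and 2.45 CPM in HNF4A, against 0.747, 0.532 and 0.123 CPM in GFP libraries (3.54 ± 1.38, edgeR adjusted p = 0.74). Cyp3a13, the intestinal form, averaged 28.5 ± 9.11 CPM in HNF4A and 13.1 ± 5.92 CPM in GFP organoids, and the groups overlapped.

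The Cyp2c members differed in how evenly the 3 HNF4A libraries carried them. Cyp2c68 was even, at 2.67, 3.40 and 3.27 CPM in HNF4A libraries, against 0 counts in all GFP libraries, at least 27.9-fold higher (edgeR adjusted p = 0.118, 0.0681 with the block). Cyp2c55 was at 188, 71.3 and 57.4 CPM in HNF4A libraries (5.97 ± 1.17, edgeR adjusted p = 0.102, 0.0480 with the block), and Cyp2c29 at 9.99, 6.00 and 1.497 CPM (adjusted p = 0.100, 0.0158 with the block). Cyp2c66, a form of the mouse gut, was at 58.0, 15.3 and 2.45 CPM in HNF4A, against at most 0.106 CPM in a GFP library. Cyp2c65, another gut form, was at 114, 28.2 and 6.67 CPM in HNF4A, against 1.28, 5.74 and 0.123 CPM in GFP libraries.

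HNF4A replicate 1 held the highest of the 3 values in 20 of 37 tested members (54.1%), against 36.3% of all tested genes. Cyp2b10, the phenobarbital-induced CAR target, showed that order in the values 34.7, 10.6 and 2.18 CPM in HNF4A, against 0.534, 1.06 and 1.59 CPM in GFP libraries (3.89 ± 0.95, edgeR adjusted p = 0.216). CAR itself, Nr1i3, was at 20.3, 11.9 and 3.95 CPM in the same HNF4A libraries, against 0.854, 1.70 and 1.96 CPM in GFP libraries (not called, edgeR adjusted p = 0.384). Cyp2d26 was at 83.3, 59.1 and 19.2 CPM in HNF4A, against 0.107, 1.17 and 0 CPM in GFP libraries (6.89 ± 1.42, edgeR adjusted p = 0.122, 0.0310 with the block). Cyp2d34 was at 18.9, 6.57 and 1.497 CPM in HNF4A, against 0 counts in GFP libraries, at least 84.1-fold higher, and was not called (edgeR adjusted p = 0.208).

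**Figure D2:**
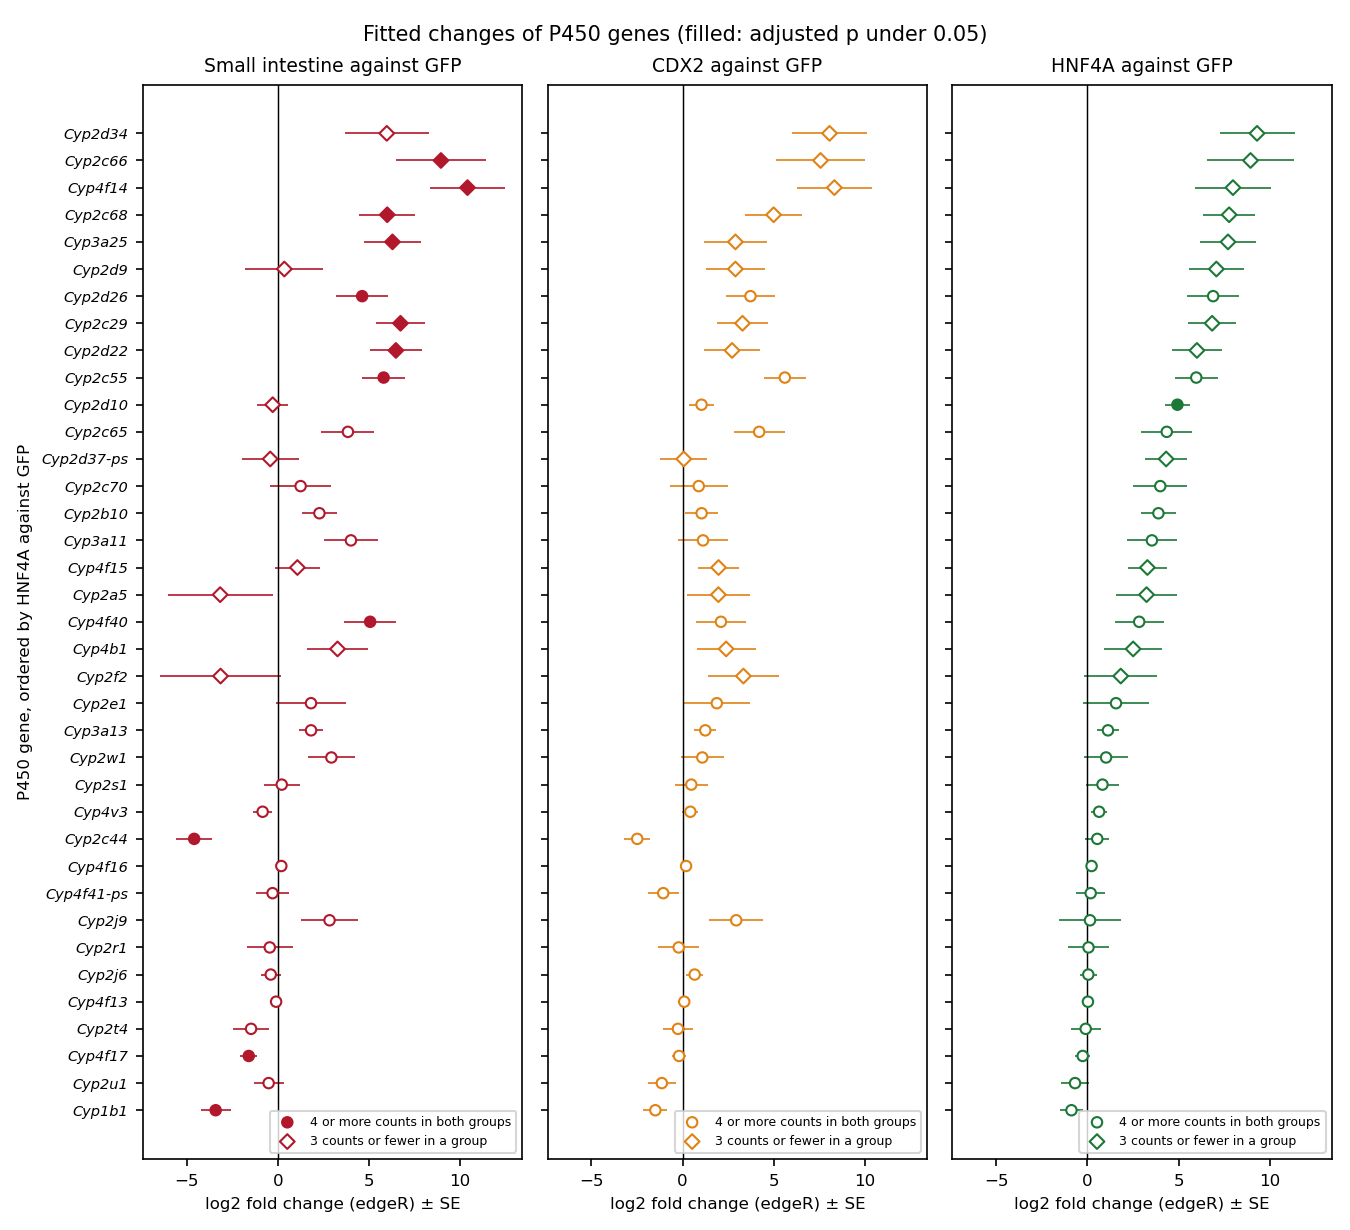
Points are fitted log2 fold changes with SE of the 37 tested P450 genes for small intestine, CDX2 and HNF4A organoids against GFP organoids; filled points have an edgeR adjusted p under 0.05, and diamonds mark genes with 3 counts or fewer in a group, whose fitted value depends on the prior count. The 3 panels share the GFP libraries, and Cyp2d10 is the filled point of the HNF4A panel.

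In CDX2 gastric organoids no member passed the test by edgeR, where 0.409% of all tested genes were called. At an unadjusted p under 0.05 there were 10 members (8 higher, 2 lower), where 11.2% of all genes had such a p; DESeq2 called 5 (3.88% of all genes) and limma-voom 0 (0.0314%). With the line block Cyp2c55 rose (1 of 37; 4.54% of all genes called), and in the blocked fit of the 9 gastric libraries alone Cyp2c55, Cyp2c66, Cyp2d34 and Cyp4f14 were higher and Cyp1b1 and Cyp2c44 lower (6 of 37, 9.67% of all genes). Groups did not overlap for 6 members in the higher and 2 in the lower direction, against 8.23% and 7.76% of all genes.

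The higher values were carried mostly by CDX2 replicate 1. Cyp2c55 was at 199, 17.4 and 29.7 CPM in CDX2 libraries, against 1.71, 3.08 and 0.123 CPM in GFP libraries (5.61 ± 1.15, edgeR adjusted p = 0.0784, 0.0311 with the block). Cyp4f14 was at 11.97, 1.21 and 0.316 CPM in CDX2 libraries against 0 counts in GFP libraries, at least 47.9-fold higher over the group, of which replicate 3 held 2 counts (edgeR adjusted p = 0.165). Cyp2c65 was at 103, 15.6 and 14.99 CPM and Cyp2c66 at 26.9, 1.57 and 0.158 CPM in CDX2 libraries. CDX2 replicate 1 held the highest CDX2 value in 20 of 37 tested members (54.1%), against 34.5% of all tested genes. It also had the highest Hnf4a of the 3, at 441, 197 and 186 CPM, and the part of Hnf4a in these values was not tested.

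The pair of genes on the lower side were those that also fell in small intestine. Cyp2c44 was at 1.81, 0.845 and 0.789 CPM in CDX2 libraries, against 7.47, 7.34 and 5.02 CPM in GFP libraries, with no overlap (-2.49 ± 0.72, edgeR adjusted p = 0.193, 0.0573 with the block, 0.00242 by DESeq2). Cyp1b1 was at 113, 309 and 270.0 CPM in CDX2 libraries, against 486, 665 and 798 CPM in GFP libraries (-1.49 ± 0.65, edgeR adjusted p = 0.418, 0.0560 with the block). The comparisons with GFP share the GFP libraries, so their values stand side by side only.

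Set directly against each other, CDX2 and HNF4A lines differed in no member by edgeR (0.0236% of all tested genes were called), with 11 members at an unadjusted p under 0.05, all lower in CDX2 (5.18% of all genes had such a p), 4 called by DESeq2 (1.09%) and 0 by limma-voom (0.0157%). Groups did not overlap for 9 members, all lower in CDX2, against 4.21% of all genes. Cyp2d10 was at 0.402, 0.483 and 0.316 CPM in CDX2, against 4.07, 7.47 and 7.08 CPM in HNF4A libraries, and fell with the block (0.22% of all genes called; -3.90 ± 0.63, edgeR adjusted p = 0.161, 0.0483 with the block). Cyp3a25 was at 0, 1.09 and 0 CPM in CDX2, against 13.0, 9.85 and 9.25 CPM in HNF4A libraries (-4.81 ± 1.21, edgeR adjusted p = 0.363). For Cyp2c44 the difference was -3.03 ± 0.73 (edgeR adjusted p = 0.336, 0.000284 by DESeq2), and for Cyp2c55 the CDX2 and HNF4A libraries overlapped.

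Small intestine differed from the HNF4A lines in 3 members, all lower (8.11% of 37, against 12.5% of all tested genes). Cyp2d10 was at 0.0931 and 0.219 CPM in small intestine, against 4.07 to 7.47 CPM in HNF4A libraries, a ratio of 40.8 with a 95% counting interval of 13.7 to 200.2 (edgeR adjusted p = 0.00680). Cyp2d9 was at 0 and 0.110 CPM in small intestine, against 5.32 to 7.67 CPM in HNF4A libraries (edgeR adjusted p = 0.0356), and Cyp2c44 fell as well (-5.12 ± 1.00, edgeR adjusted p = 0.0165). Neither Cyp2d gene overlapped between the groups. Without small intestine replicate 1, no member was called, and without HNF4A replicate 2, 1 was. Cyp4f14 pointed the other way, at 17.8 and 21.1 CPM in small intestine, against 5.93, 3.74 and 1.09 CPM in HNF4A libraries, and was not called (edgeR adjusted p = 0.206).

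Against the CDX2 lines, small intestine differed in no member by edgeR (11.3% of all tested genes called), with 7 at an unadjusted p under 0.05 (30.1% of all genes), 4 called by DESeq2 (21.1%) and 2 by limma-voom (10.5%). Cyp2c29 was at 6.24 and 4.61 CPM in small intestine, against 1.01, 0.362 and 0 CPM in CDX2 libraries (3.45 ± 1.06, edgeR adjusted p = 0.0608). Cyp2d10 did not exceed 0.483 CPM in any library of small intestine, CDX2 or GFP organoids.

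**Figure D3:**
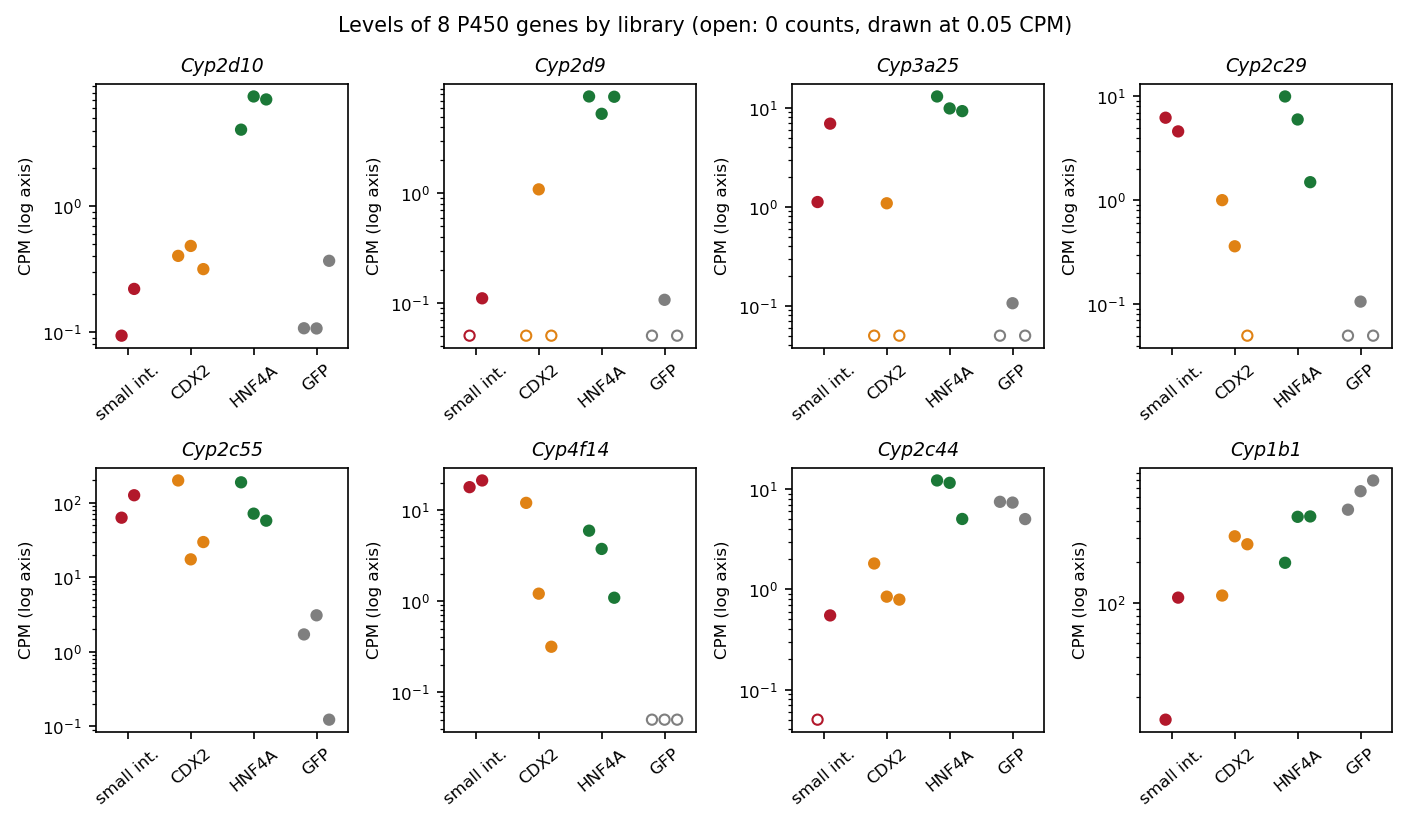
Each point is 1 library of the lines, with CPM on a log axis and open points for 0 counts. In the first 3 panels (Cyp2d10, Cyp2d9 and Cyp3a25) the HNF4A points are above those of CDX2 and GFP, and in the Cyp2c44 and Cyp1b1 panels small intestine and CDX2 points are below GFP points.

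Some of the remaining tested members were level across the lines and others varied without being called. Cyp4f13 and Cyp4f16, of the Cyp4f family of fatty acid and eicosanoid hydroxylases, ran from 29.3 to 45.1 and from 16.4 to 27.0 CPM over all 11 libraries. Their largest differences from GFP were 0.09 ± 0.20 and 0.23 ± 0.22 in log2 units. Cyp2s1, an epithelial P450 outside the liver, varied within groups more than between them, at 118 and 214 CPM in small intestine, 266, 215 and 115 CPM in CDX2, 419.8, 299 and 38.8 CPM in HNF4A and 151, 259 and 18.5 CPM in GFP libraries. Cyp2j6, an arachidonic acid epoxygenase of the gut, ran from 18.4 to 142 CPM, and Cyp4v3, the mouse counterpart of the fatty acid hydroxylase CYP4V2, from 2.61 to 17.6 CPM, neither called by edgeR. Cyp4v3 did not overlap between small intestine (2.61 and 7.46 CPM) and HNF4A libraries (12.1, 13.8 and 15.8 CPM), with a log2 fold change of -1.47 ± 0.52 (edgeR adjusted p = 0.0869, 0.0301 by DESeq2). Cyp2r1, a vitamin D 25-hydroxylase, stayed at or below 1.33 CPM in every library of the lines, Cyp2u1, a fatty acid hydroxylase, at or below 1.81 CPM and Cyp2t4 at or below 2.88 CPM. Cyp2w1 was at 0.745 and 10.6 CPM in small intestine, against 1.07, 0.851 and 0.245 CPM in GFP libraries, with overlap (2.94 ± 1.28, edgeR adjusted p = 0.111), and Cyp4b1 at most 1.65 CPM anywhere in the lines.

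The promoters of the members were read from RefSeq, 250 bases before to 50 after the start (GRCm38.p6), to show what sequence the genes that stood out in HNF4A and intestinal organoids carry. A promoter was present for 66 of 85 members (73 sequences, 36 of the 45 tested members). The HNF4-type letters CAAAGTCCA were in 10 of the 73 (13.7%), against 0.475% of all 32851 promoters, and CAAAGGTCA in 4 (5.48%), against 0.478%. Both are covered by the looser pattern CAAAGNNCA, chosen after the sequences were seen, which was in 25 (34.2%), against 6.36% of all promoters. The CDX-type letters TTTATNG were in 10 (13.7%), against 10.9%, the stricter TTTATTG in 3 (4.11%), against 4.6%, the HNF1-type GTTAATNAT in 3 (4.11%), against 0.801%, and the AHR core GCGTG in 15 (20.5%), against 32.4%. Both strands were searched, and tandem paralogs share sequence, so these matches are not independent.

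Promoters of 6 members with differing patterns are shown 5′ to 3′ on the gene's strand, with matches to CAAAGNNCA or TTTATNG in capitals, and in Cyp1b1 the match to GCGTG (here on the opposite strand). Cyp2d10 (chr15:82407145-82407444, minus strand), Cyp2d9 (chr15:82452127-82452426, plus), Cyp2c68 (chr19:39741052-39741351, minus) and Cyp3a25 (chr5:146009568-146009867, minus) were highest in HNF4A organoids within the lines. Cyp2c55 (chr19:39006769-39007068, plus) was above GFP in intestinal, CDX2 and HNF4A organoids, and Cyp1b1 (chr17:79715012-79715311, minus) below GFP.
Cyp2d10: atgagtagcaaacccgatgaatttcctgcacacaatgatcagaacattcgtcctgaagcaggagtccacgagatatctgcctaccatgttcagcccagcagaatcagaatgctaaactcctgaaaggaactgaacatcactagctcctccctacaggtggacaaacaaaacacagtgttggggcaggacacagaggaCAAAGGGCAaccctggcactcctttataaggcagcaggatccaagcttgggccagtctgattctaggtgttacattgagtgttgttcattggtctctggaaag
Cyp2d9: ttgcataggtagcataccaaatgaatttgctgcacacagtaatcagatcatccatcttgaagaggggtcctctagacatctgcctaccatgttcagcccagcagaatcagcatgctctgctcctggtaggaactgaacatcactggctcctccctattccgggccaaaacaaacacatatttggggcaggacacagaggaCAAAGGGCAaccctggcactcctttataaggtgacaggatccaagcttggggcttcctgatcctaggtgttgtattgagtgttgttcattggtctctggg
Cyp2c68: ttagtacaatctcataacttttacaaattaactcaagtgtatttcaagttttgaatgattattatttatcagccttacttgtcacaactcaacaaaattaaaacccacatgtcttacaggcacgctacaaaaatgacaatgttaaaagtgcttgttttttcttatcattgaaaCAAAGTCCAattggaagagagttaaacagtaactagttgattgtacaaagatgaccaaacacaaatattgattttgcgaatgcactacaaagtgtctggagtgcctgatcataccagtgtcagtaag
Cyp3a25: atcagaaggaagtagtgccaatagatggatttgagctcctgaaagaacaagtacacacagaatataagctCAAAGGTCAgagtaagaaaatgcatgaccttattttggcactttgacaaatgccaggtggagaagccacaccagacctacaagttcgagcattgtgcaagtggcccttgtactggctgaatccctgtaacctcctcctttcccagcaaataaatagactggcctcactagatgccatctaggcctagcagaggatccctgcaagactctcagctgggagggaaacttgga
Cyp2c55: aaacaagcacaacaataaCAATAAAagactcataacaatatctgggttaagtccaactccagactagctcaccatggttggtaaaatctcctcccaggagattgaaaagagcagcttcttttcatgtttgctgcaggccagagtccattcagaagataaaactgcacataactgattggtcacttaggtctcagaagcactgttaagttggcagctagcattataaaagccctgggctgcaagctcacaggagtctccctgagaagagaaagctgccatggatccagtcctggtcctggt
Cyp1b1: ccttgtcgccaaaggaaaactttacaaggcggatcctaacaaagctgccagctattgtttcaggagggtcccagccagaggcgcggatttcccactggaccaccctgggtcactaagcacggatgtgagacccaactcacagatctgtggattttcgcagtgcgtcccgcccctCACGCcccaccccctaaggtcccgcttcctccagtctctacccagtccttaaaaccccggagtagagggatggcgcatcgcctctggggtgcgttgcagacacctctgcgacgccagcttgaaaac
The match lies 53 bases before the start in Cyp2d10 and 50 in Cyp2d9, whose promoters have 222 of 297 bases in common, and 77 and 180 bases before it in Cyp2c68 and Cyp3a25. Of the 9 members tested in the lines whose promoter holds CAAAGNNCA, 8 did not overlap with GFP in the higher direction in HNF4A organoids, against 8 of the 21 with a promoter and no match and 6.69% of all genes. The same counts were 2 of 9 and 3 of 21 in CDX2 organoids, and 6 of 9 and 10 of 21 in small intestine. Of the 9, Cyp2d9, Cyp2d10, Cyp2d26 and Cyp4b1 hold neither CAAAGTCCA nor CAAAGGTCA and enter only through the looser pattern. A match is a description of these letters and not of binding. The pattern was picked with the values known, so these counts cannot support a link between the letters and the changes.

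The genes that supply, sense or act beside P450 enzymes were read from the same fits. None of the 7 tested genes for electron supply and haem was called by edgeR or DESeq2 in HNF4A or CDX2 against GFP organoids, with median log2 fold changes of 0.10 and -0.03. In small intestine against GFP organoids 1 of the 7, the cytochrome b5 gene Cyb5b, rose by edgeR (1.09 ± 0.21, edgeR adjusted p = 0.00648), where 27.1% of all tested genes were called. The median of the 7 there was -0.38, against -0.01 over all genes, and DESeq2 called 1 higher and 2 lower. Por was at 411, 525 and 362 CPM in HNF4A and 386, 473 and 324 CPM in CDX2 libraries, against 372, 554 and 281 CPM in GFP libraries. Of 8 tested sensors and partners none was called by edgeR in either comparison, with median log2 fold changes of 1.03 in HNF4A and 0.29 in CDX2. DESeq2 called 2 and 1 of them, against 1.74% and 3.88% of all genes. Nr1i2, which encodes PXR, was at 38.2, 43.0 and 30.3 CPM in HNF4A, against 6.30, 12.3 and 7.60 CPM in GFP libraries, and passed with the block (2.09 ± 0.36, edgeR adjusted p = 0.0657, 0.0468 with the block).

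In small intestine against GFP organoids, 4 of the 8 sensors rose (Nr1i2, Nr1h4, Ppara and Ahrr) and 2 fell (Ahr and Arnt). Of all tested genes 14.2% were called higher and 12.9% lower in this comparison, shares that also stand beside the lists below. Nr1i2 was at 33.9 and 57.2 CPM in small intestine (2.38 ± 0.38, edgeR adjusted p = 0.00344). The gene for the AHR repressor, Ahrr, an AHR target, rose (8.10 and 7.13 CPM, against at most 0.638 CPM in GFP; 4.65 ± 1.10, edgeR adjusted p = 0.0141), while Ahr fell (33.4 and 56.5 CPM, against 124, 165 and 155 CPM; -1.72 ± 0.50, edgeR adjusted p = 0.0298). Of 5 other AHR target genes 2 rose in that comparison, Ugt1a7c and Tiparp. In CDX2 organoids 1 rose, the glucuronosyltransferase gene Ugt1a7c (87.5, 28.2 and 20.8 CPM, against 0.747, 0.425 and 0.490 CPM in GFP, log2 fold change 6.32 ± 0.84, edgeR adjusted p = 0.0158), where 0.409% of all tested genes were called. P450 families 5 and above, which make and break down steroids, sterols, retinoids and bile acids, have 21 rows in the table including Tbxas1 and Ptgis; of the 8 tested, none was called by edgeR or DESeq2 in HNF4A or CDX2 organoids and 1, the steroid 21-hydroxylase gene Cyp21a1, fell in small intestine (-3.09 ± 0.95, edgeR adjusted p = 0.0376). With the block 1 of the 8 rose in CDX2 organoids, the sterol demethylase gene Cyp51 (1.02 ± 0.49, edgeR adjusted p = 0.485, 0.0369 with the block), where the block called 4.54% of all genes. Of 6 epoxide hydrolase and eicosanoid genes, none was called by edgeR in HNF4A or CDX2 organoids (DESeq2 called 0 and 1), and 3 fell in small intestine against GFP (Ephx1, Ephx4 and Ptgs1).

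Some members followed albumin from library to library. All 6 hepatocyte markers (Alb, Ttr, Serpina1a, Apoa1, Fgb and Tat) had counts in every group, and they summed to 26.8 and 47.5 CPM in small intestine, 4.10 to 54.2 CPM in CDX2, 25.99 to 73.1 CPM in HNF4A and 0.980 to 15.9 CPM in GFP libraries. In the enhancer experiment they summed to 16.4 to 218 CPM in homozygous, 97.3 to 225 CPM in heterozygous and 143 to 224 CPM in wild-type libraries. Cyp2e1, the ethanol-inducible form of liver, had 7.06 to 9.57 counts per 100 counts of Alb in the 8 enhancer libraries with at least 100 counts of Alb, and 0 counts in homozygous replicate 3, which had 6 of Alb. The range was 1.36-fold for Cyp2e1, 1.45-fold for Cyp4a10, 1.82-fold for Cyp4a14 and 1.87-fold for Cyp1a2, the only 4 of the 42 tested members within 2-fold. In these 8 libraries Cyp2e1 had 34 to 119 counts, Cyp4a10 4 to 18, Cyp4a14 6 to 29 and Cyp1a2 3 to 17. The share of all tested genes within 2-fold was not computed, so the count describes these members only. Cyp2e1 is a liver enzyme, Cyp4a10 and Cyp4a14 are fatty acid omega-hydroxylases induced through PPARα in liver, and Cyp1a2 is a liver AHR target. The part of another cell source or of library mixing in these 4 genes was not tested.

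In the lines the ratio was less even: Cyp2e1 had 2.88 to 12.5 counts per 100 counts of Alb in the 4 libraries with at least 100 counts of Alb, a 4.35-fold range that rests on 3 to 37 counts of Cyp2e1. The gene was highest in CDX2 replicate 2, at 4.46 CPM of Cyp2e1 beside 35.6 CPM of Alb, with 0 counts of Cyp2e1 in CDX2 replicates 1 and 3, where Alb had 2 and 0 counts. Cyp2f2, a naphthalene-activating form, was likewise at 3.74 CPM in CDX2 replicate 2 and at 0 in the other CDX2 libraries. Small intestine libraries departed from this, with 18 and 11 counts of Cyp2e1 beside 2 and 23 of Alb. In HNF4A replicate 3, which had 0 counts of Alb and 0 of Cyp2e1, Cyp2d10 had 52 counts, Cyp2d9 56 and Cyp3a25 68. CDX2 replicate 2, with more Alb than any HNF4A library, had 4, 9 and 9 counts of these genes. Among the CDX2 and GFP libraries, though, Cyp2d9 and Cyp3a25 had counts only where Alb was highest in the group. These were CDX2 replicate 2 and GFP replicate 2, which had 104 counts of Alb and 1 count of each gene. The part of another cell source in these genes was not tested.

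**Figure D4:**
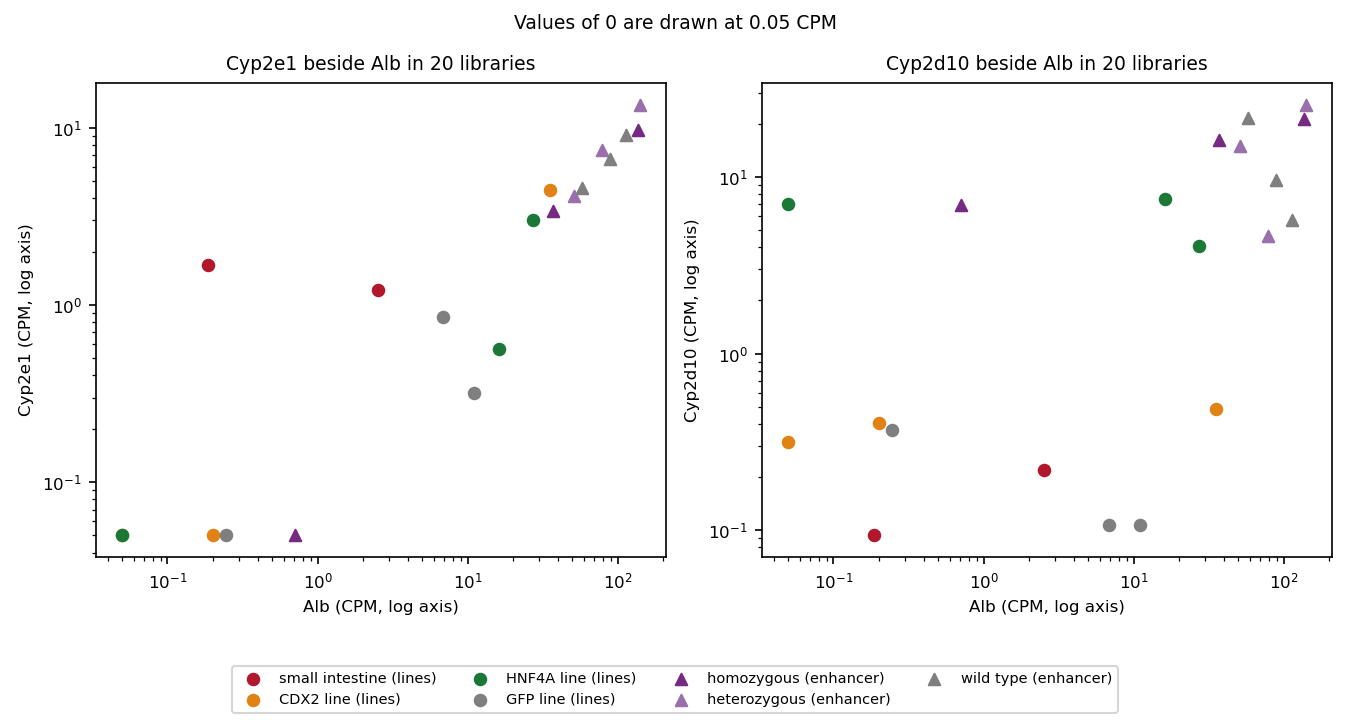
Each point is 1 of the 20 libraries, with Alb on the x axis and Cyp2e1 (left) or Cyp2d10 (right) on the y axis, in CPM on log axes; circles are the lines, triangles the enhancer experiment, and values of 0 are drawn at 0.05 CPM. Cyp2e1 lies along a line with Alb from about the level of HNF4A replicate 1 upward, while Cyp2d10 is above 4 CPM in the 12 libraries that carry the HNF4A construct and below 0.5 CPM in the other 8, at low and high Alb alike.

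The enhancer experiment compares P450 genes of HNF4A-overexpressing antrum organoids with and without the deletion. Cdx2, the gene next to the deleted enhancer, was at 0.199, 1.36 and 0.585 CPM in homozygous and 18.4, 5.55 and 9.31 CPM in heterozygous libraries, against 16.7, 26.8 and 58.5 CPM in wild-type libraries. Hnf4a was at 336 to 374 CPM in homozygous, 276 to 422 CPM in heterozygous and 320.0 to 513 CPM in wild-type libraries. None of the 42 tested members passed the test in homozygous against wild-type organoids, nor did any gene of the table (0% by edgeR, 0% by limma-voom; DESeq2 called no member and 1.43% of all genes). At an unadjusted p under 0.05 there was 1 member, Cyp2c65, where 4.59% of all genes had such a p. The median log2 fold change was -0.25, against 0.00 over all genes, and 2 members, Cyp2c66 and Cyp4f16, did not overlap, both lower, against 4.17% of all genes.

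Cyp2c65 was at 25.98, 16.8 and 6.20 CPM in homozygous and 15.9, 13.1 and 19.1 CPM in heterozygous libraries, against 23.9, 40.4 and 141 CPM in wild-type libraries. The wild-type value was carried by replicate 3, the only library of this experiment with more than 0.227 CPM of the Y-linked gene Ddx3y (101 CPM). The log2 fold change was -2.06 ± 0.68 for homozygous against wild type (edgeR adjusted p = 0.877), and -0.98 without that library. Wild-type replicate 3 held the highest wild-type value in 19 of the 42 tested members (45.2%), against 37.8% of all tested genes. The part of sex in these values was not tested. Cyp2c66 was at 13.9, 19.1 and 2.46 CPM in homozygous, against 24.3, 23.0 and 39.7 CPM in wild-type libraries (-1.29 ± 0.68, edgeR adjusted p = 0.999). Cyp4f16 was at 21.0, 21.0 and 15.7 CPM in homozygous, against 22.8, 22.0 and 21.8 CPM in wild-type libraries (-0.21 ± 0.18). The gap between the groups was smaller than the spread of the homozygous libraries.

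In heterozygous against wild-type organoids 7 members had an unadjusted p under 0.05, all lower, where 8.93% of all genes had such a p, and none passed by edgeR (0% of all genes called) or limma-voom. DESeq2 called Cyp2c65 (2.60% of all genes; log2 fold change -2.10 ± 0.68 and adjusted p = 0.462 by edgeR, 0.0420 by DESeq2), which was at -1.01 without wild-type replicate 3. Groups did not overlap for 2 members in the higher and 6 in the lower direction, against 8.76% and 6.15% of all genes. The higher ones were Cyp2d22, whose values are given below, and Cyp2u1. Cyp2u1 was at 1.36, 1.54 and 1.82 CPM in heterozygous libraries, against 0.450, 1.08 and 0.382 CPM in wild-type libraries. Cyp2r1 was at 0.524, 0.512 and 0.227 CPM in heterozygous libraries, against 1.35, 0.842 and 1.65 CPM in wild-type libraries (-1.56 ± 0.58, edgeR adjusted p = 0.498). Cyp3a13 was at 11.4, 11.4 and 17.1 CPM in heterozygous libraries, against 16.7, 27.9 and 27.1 CPM in wild-type libraries (-0.84 ± 0.30, edgeR adjusted p = 0.488).

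Homozygous and heterozygous organoids differed in no member (0% of all genes by edgeR and limma-voom), where DESeq2 called no member and 0.00795% of all genes. At an unadjusted p under 0.05 there was 1 member, against 0.262% of all genes. It was Cyp2r1, at 0.896, 1.27 and 1.52 CPM in homozygous, against 0.524, 0.512 and 0.227 CPM in heterozygous libraries (1.498 ± 0.58, edgeR adjusted p = 1). Within each genotype the libraries differed widely. Homozygous replicate 3 had 0 counts in 7 of the 42 tested members (Cyp1a2, Cyp2c37, Cyp2c50, Cyp2e1, Cyp2f2, Cyp4a10 and Cyp4a14), where the other 8 libraries had counts of all 42. In that library Alb was at 0.702 CPM and the fibroblast markers summed to 1068 CPM, and their part in the low values was not tested. Heterozygous replicate 3 held the highest of the 3 heterozygous values in 32 of 42 members (76.2%), against 31.4% of all tested genes, and homozygous replicate 2 the highest homozygous value in 26 (61.9%), against 29.5%.

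The genes that stood out with HNF4A in the lines were present in all genotypes of this experiment, in which every library carries the HNF4A construct. Cyp2d10 was at 16.2, 21.3 and 6.91 CPM in homozygous and 4.61, 15.02 and 25.8 CPM in heterozygous libraries, against 9.62, 21.7 and 5.73 CPM in wild-type libraries. Cyp2d9 was at 16.5, 24.2 and 2.69 CPM in homozygous, against 8.90, 18.5 and 5.599 CPM in wild-type libraries, and Cyp3a25 at 7.56, 16.1 and 3.04 CPM, against 11.96, 8.90 and 4.58 CPM. The groups overlapped for all 3 genes. Cyp2c55 was at 76.4, 144 and 17.8 CPM in homozygous and 30.7, 93.8 and 95.5 CPM in heterozygous libraries, against 88.8, 113 and 117 CPM in wild-type libraries, again with overlap. Cyp4f14 was at 0.995, 1.95 and 0.468 CPM in homozygous, against 0.899, 2.89 and 6.36 CPM in wild-type libraries (-1.54 ± 0.80, edgeR adjusted p = 0.999). Cyp2c44 and Cyp1b1 were at 13.6 to 17.9 and 375 to 736 CPM in homozygous, against 7.13 to 20.7 and 341 to 676 CPM in wild-type libraries.

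**Figure D5:**
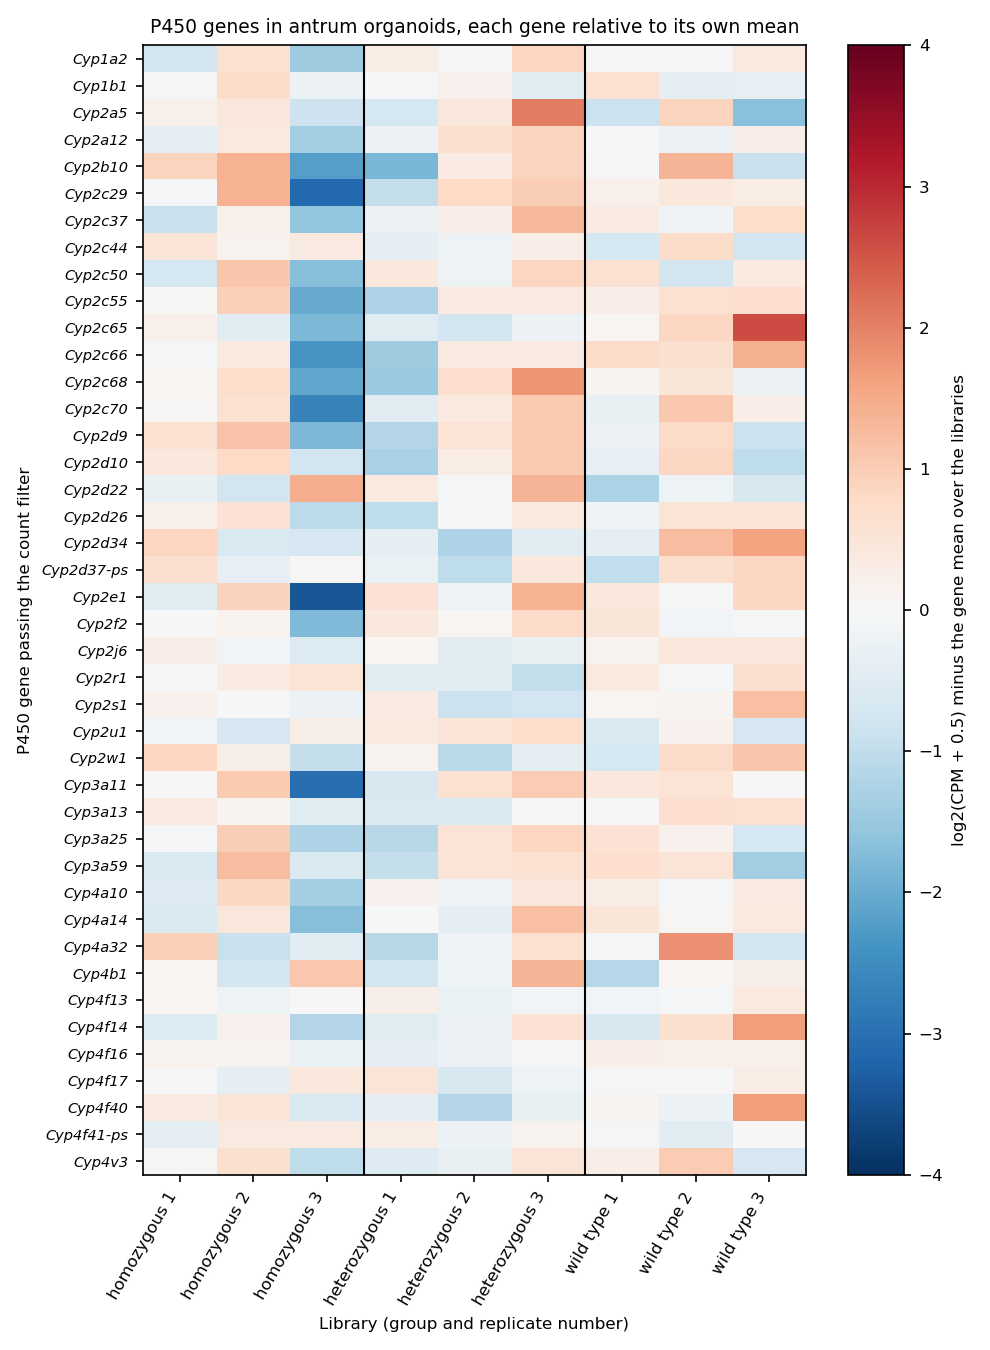
Each row is 1 of the 42 tested P450 genes and each column 1 of the 9 antrum organoid libraries, all with HNF4A overexpression; colour gives log2(CPM + 0.5) minus that gene's mean over the 9 libraries. Homozygous replicate 3 is low for many Cyp2c, Cyp2e1 and Cyp3a rows, wild-type replicate 3 is high for Cyp2c65, and no block of rows separates the genotypes.

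Between subfamily members the genotype values varied as much as the libraries did. Cyp2b10 was at 53.5, 75.0 and 5.85 CPM in homozygous and 7.76, 35.8 and 53.5 CPM in heterozygous libraries, against 29.2, 73.9 and 15.3 CPM in wild-type libraries. Cyp2a5, a coumarin hydroxylase in mouse, was at 3.18, 3.90 and 1.29 CPM in homozygous and 1.47, 3.84 and 12.7 CPM in heterozygous libraries, against 1.26, 5.41 and 0.509 CPM in wild-type libraries. Cyp4a14 was at 0.597, 1.75 and 0 CPM in homozygous and 1.15, 0.768 and 3.29 CPM in heterozygous libraries, against 1.80, 1.20 and 1.65 CPM in wild-type libraries, so the groups overlapped for these genes. Cyp2d22 was at 1.89, 1.27 and 7.61 CPM in homozygous and 3.35, 2.39 and 7.15 CPM in heterozygous libraries, against 0.720, 2.05 and 1.40 CPM in wild-type libraries. Every heterozygous library lay above every wild-type library. The highest values were in homozygous replicate 3 and heterozygous replicate 3, the libraries with the most fibroblast marker signal of their genotypes, whose part was not tested. Cyp2s1 was at 166 to 223 CPM in homozygous and 108 to 248 CPM in heterozygous, against 207 to 459 CPM in wild-type libraries. The 3 libraries richest in fibroblast markers were homozygous replicate 3 and heterozygous replicates 3 and 2. Leaving them out keeps only heterozygous replicate 1 of that genotype. Without them no member was called for homozygous against wild type. Since edgeR called 0% of all genes in the full fits, this cannot show the part of the fibroblast signal.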

How the data were processed

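Gene-level read counts of 20 poly-A RNA-seq libraries of mouse organoids (150 bp reads) were used as deposited by the authors in 1 table. STAR and Bowtie2 and the builds mm10 and hg19 are named per the submitters' processing notes with no role, and the sources used here do not give the counting program or its strand setting. The genes and the lists of partner and marker genes were chosen with earlier results of these data known. Each experiment was fitted apart with all its groups in edgeR 4.0.16 (R 4.3.3), with TMM factors, filterByExpr (minimum count 10, minimum total 15), the quasi-likelihood test and Benjamini-Hochberg adjustment over 12720 genes of the lines and 12593 of the enhancer experiment; a gene was called at an adjusted p under 0.05. Steps were tested on simulated data. CPM values use TMM-scaled library sizes, and depth per library is given with the results. Where a group held 0 counts, the fold is a bound from 3 counts over the group; with 1 to 3 counts the ratio has an exact 95% interval, which covers counting error only.

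Named genes are the members called in a comparison, up to 12 in each by size of the log2 fold change, and the most abundant tested member of each subfamily, with further members of the lists; Cyp2c66, Cyp2c65 and others in the enhancer experiment were picked after their values were seen. Levels of different genes were not compared, since no transcript lengths were used. Same-numbered gastric libraries deviated together (r 0.336 to 0.751 over 9 pairs), as did homozygous and heterozygous ones (0.1876 to 0.5299 over 3 pairs), while numbers shared with small intestine (-0.0882 to 0.1197) or wild type (-0.2913 to 0.2471) did not pair in every case. A replicate block is therefore given beside many results of the gastric lines, whether or not it changed the call. Alternatives were DESeq2 1.42.0, limma-voom (limma 3.58.1), other scalings and filters, fits of the compared groups alone, the block and leaving out each library.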

Additional observations from a re-analysis of the deposited data

How the results depend on the processing

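None of the 80 results of single P450 genes with an unadjusted p under 0.05 by edgeR changed direction under any alternative run. Over all tested members, called or not, signs did change, in 10 of 37 under limma-voom for CDX2 against HNF4A, 8 of 35 without CDX2 replicate 2 for CDX2 against GFP, and 19 of 42 for homozygous against heterozygous without the 3 libraries richest in fibroblast markers. Of the 80, 16 were called and 13 of those lost the call under at least 1 alternative. The replicate block was used because same-numbered gastric libraries pair. With it the number of P450 genes called was 1 for CDX2 against GFP, 5 for HNF4A against GFP and 1 for CDX2 against HNF4A. It was 3 for small intestine against CDX2 and 5 for small intestine against HNF4A. Small intestine libraries did not pair with same-numbered gastric ones (r -0.0882 to 0.1197), so the block lacks that ground there. The block moved no count of the other comparisons by over 1.5 times. The block in the 9 gastric libraries alone, chosen after seeing the data, gave 6, 11 and 4 for CDX2 against GFP, HNF4A against GFP and CDX2 against HNF4A. DESeq2 called 5, 11, 4, 4 and 7 in the 5 comparisons named for the block, in that order, and 1 for heterozygous against wild type. Limma-voom called 0 for HNF4A against GFP, 7 for small intestine against GFP, 2 for small intestine against CDX2 and 6 for small intestine against HNF4A, and the fit of only the groups compared called 2 for HNF4A against GFP (Cyp2d9 and Cyp3a25, not Cyp2d10). Leaving out 1 library gave 0 to 3 for HNF4A against GFP (3 without CDX2 replicate 1), 6 to 14 for small intestine against GFP, 0 to 3 for small intestine against CDX2 (3 without small intestine replicate 2) and 0 to 4 for small intestine against HNF4A. The causes were not tested.

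With 2 or 3 libraries a group and 3 counts worth up to 0.473 CPM, a missing call does not show that a low gene was alike in both groups, and reads shared between tandem paralogs could not be assigned to 1 copy.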
